A study of Mus musculus with 29 samples.

Results

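The retinoid handling and visual cycle genes described here were 10 genes picked by name from the RNA-seq count table, in which each had 1 entry among 24062 genes: Abca4, Rdh8, Rdh12, Rdh5, Rdh10, Rbp3, Rbp4, Rpe65, Dhrs3 and Stra6. They were followed across 15 RNA-seq libraries, 3 from each of 5 sorted mouse retinal cell populations, and through the 70 accessible regions nearest to their transcription start sites in 12 ATAC-seq libraries, 2 from each of 6 populations. The RNA-seq libraries of pan-BC (all bipolar cells) came from Otx2-GFP+/- mice aged 44 to 47 days. Those of ON-BC and OFF-BC came from Otx2-GFP+/-; Grm6-YFP+/+ mice aged 42 to 48 days. GFP sat in the endogenous Otx2 locus, so that 1 copy of Otx2 carried the insertion in every bipolar cell mouse. YFP was driven by the Grm6 promoter, which is active in ON bipolar cells. OFF-BC were sorted a second time, while pan-BC and ON-BC were sorted once, and OTX2-GFP also labels photoreceptors weakly. BC5D cells, an ON type, were probably missing from both the ON and the OFF gate. Rods were Nrl-eGFP cells at day 56. "Blue cones" were Nrl-eGFP; NrlKO cells at day 56, that is photoreceptors that lack the rod-determining factor Nrl and stand in for short-wavelength cones. The ATAC-seq bipolar libraries (day 42 to 46) were labelled Otx2-GFP+/-; Grm6-YFP+/+ throughout, and ATAC-seq added green cones from Opn1mw-GFP mice at day 56. The photoreceptor libraries were those of a previous study by this laboratory, so cell class, study and age cannot be told apart in any comparison of bipolar cells with photoreceptors.

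RNA-seq libraries held 12329548 to 26266746 counted reads and ATAC-seq libraries 4176776 to 12345845. Nrl, the disrupted gene, had 11476 to 16599 normalized read counts in rods and 486 to 764 in blue cones. All 10 rod markers were lower in pan-BC than in rods, all 8 cone markers were lower in pan-BC than in blue cones, and 10 of 11 bipolar markers were higher in pan-BC than in rods. OFF-BC library 3 stood apart from libraries 1 and 2, with a summed rod marker level of 24643 against 6425 and 6247 and a summed cone marker level of 106866 against 36802 and 31749. In sorted bulk samples, fewer cells of a type and less RNA per cell cannot be told apart. The labels do not say that libraries came from separate mice, so p-values measure the spread between libraries.

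The visual cycle regenerates the chromophore of the opsins. After light has turned cis retinal into all-trans retinal, the flippase ABCA4 moves the retinal to the cytoplasmic side of the photoreceptor disc, short-chain dehydrogenases such as RDH8, RDH12 and DHRS3 reduce it to retinol, and the carrier IRBP (encoded by Rbp3) shuttles retinoids across the space between photoreceptors and pigment epithelium. In the pigment epithelium RPE65 forms cis retinol and RDH5 oxidizes it to cis retinal. RBP4 carries retinol in blood and STRA6 is its cell surface receptor, while RDH10 oxidizes retinol to retinal, the substrate for retinoic acid synthesis.

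Sequences near 5 members are given to describe the starts and regions named below, and their part in accessibility was not tested. All are the plus strand of GRCm38.p6, as given by RefSeq. The upstream windows are the 250 bases before the RefSeq start of the 2 members whose expression was lower in ON-BC than in OFF-BC. In the upstream windows and in the Rbp3, Rdh12 and Rpe65 regions, capitals mark matches on either strand to TAATCC, a motif of homeodomain factors such as CRX and OTX2, or to TAATTA and its variant TAATTG, motifs of many other homeodomain factors. In the Dhrs3 region, capitals mark the E-box letters CANNTG, a motif of basic helix-loop-helix factors. The Rbp3 and Rdh12 regions were far more accessible in rods than in pan-BC, and the Rpe65 and Dhrs3 regions had reads in pan-BC and none in rods.
Abca4, chr3:122044210-122044459, upstream of the start: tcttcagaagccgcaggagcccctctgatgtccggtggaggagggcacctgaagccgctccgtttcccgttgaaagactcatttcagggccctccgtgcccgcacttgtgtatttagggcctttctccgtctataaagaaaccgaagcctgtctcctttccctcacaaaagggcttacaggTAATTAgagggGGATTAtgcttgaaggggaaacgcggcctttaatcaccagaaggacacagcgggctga
Rbp3, chr14:33953753-33954002, upstream of the start: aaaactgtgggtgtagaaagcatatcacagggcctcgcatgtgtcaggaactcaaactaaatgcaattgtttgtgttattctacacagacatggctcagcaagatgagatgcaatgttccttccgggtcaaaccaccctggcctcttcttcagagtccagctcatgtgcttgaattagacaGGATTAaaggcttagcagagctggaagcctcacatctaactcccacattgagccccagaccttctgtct
Rbp3, chr14:33950200-33950399, intergenic region: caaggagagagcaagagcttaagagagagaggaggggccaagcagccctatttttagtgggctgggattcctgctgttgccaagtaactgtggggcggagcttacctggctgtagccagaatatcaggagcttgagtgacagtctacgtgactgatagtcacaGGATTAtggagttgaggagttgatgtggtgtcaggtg
Rdh12, chr12:79216224-79216423, intron of Rdh12: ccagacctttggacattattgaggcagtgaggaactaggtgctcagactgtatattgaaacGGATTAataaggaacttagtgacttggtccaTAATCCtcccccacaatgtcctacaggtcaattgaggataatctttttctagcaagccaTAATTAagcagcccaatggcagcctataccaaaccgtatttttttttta
Rpe65, chr3:159548405-159548604, intergenic region: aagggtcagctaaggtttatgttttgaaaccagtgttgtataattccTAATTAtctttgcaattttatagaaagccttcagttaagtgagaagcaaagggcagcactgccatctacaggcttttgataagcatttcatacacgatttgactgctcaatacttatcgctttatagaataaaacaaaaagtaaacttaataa
Dhrs3, chr4:144867992-144868191, intergenic region: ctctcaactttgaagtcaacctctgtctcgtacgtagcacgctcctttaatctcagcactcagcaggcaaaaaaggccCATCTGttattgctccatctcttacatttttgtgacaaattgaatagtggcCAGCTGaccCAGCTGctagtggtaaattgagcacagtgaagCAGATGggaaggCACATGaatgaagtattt

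The member genes whose products clear all-trans retinal were expressed far more strongly in rods than in bipolar cells. Against blue cones, Abca4, Rdh12 and Rdh8 were lower in pan-BC, whereas Dhrs3 did not pass the test. Abca4 (gene ID 11304, GRCm38 chr3:122044460-122180061, plus strand) had 19995, 22879 and 23097 normalized read counts in rods, 12883, 9953 and 10687 in blue cones, 1353, 1256 and 1455 in pan-BC, 1869.8, 2569.9 and 2455 in OFF-BC and 699, 855 and 739 in ON-BC. No library of one population overlapped with the next in this order, from rods through blue cones, OFF-BC and pan-BC to ON-BC. A normalized read count is the number of reads on a gene divided by 1 size factor per library, and a gene was called where limma's test for a log2 difference beyond 1 in either direction gave an adjusted p below 0.05 over all 14024 genes tested. On the scale of log2(normalized read count + 1), pan-BC minus rods for Abca4 was -4.02 ± 0.13 (SE, n = 3 per population, adjusted p = 2.31e-12, 16.2-fold between means), and pan-BC minus blue cones was -3.04 ± 0.13 (adjusted p = 9.07e-10, 8.25-fold). Rods exceeded blue cones 1.97-fold, which did not pass the test (log2 difference 0.98, adjusted p = 1.0). Tested against a log2 difference of 0 instead, it was called (adjusted p = 8.65e-06).

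Rdh12 (77974, chr12:79208913-79222664, plus strand), a retinal reductase of photoreceptor inner segments, had 21686, 24956 and 22623 normalized read counts in rods and 3618, 4860 and 5084 in blue cones. Its values were 525, 461 and 592 in pan-BC, 734, 587.5 and 719.5 in OFF-BC and 315, 367 and 244 in ON-BC. The populations were ordered as for Abca4, and only OFF-BC and pan-BC overlapped among neighbours. Pan-BC were lower in Rdh12 than rods by -5.46 ± 0.16 on the log2 scale (adjusted p = 1.67e-13, 43.9-fold), and lower than blue cones by -3.09 ± 0.16 (adjusted p = 4.60e-09, 8.59-fold). Rods also exceeded blue cones, 5.11-fold (2.37 ± 0.16, adjusted p = 1.63e-06).

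Rdh8 (235033, chr9:20818494-20828058, plus strand), the retinol dehydrogenase of photoreceptor outer segments, was a low gene in this group. It had 451, 447 and 388 normalized read counts in rods and 162.5, 139 and 158 in blue cones, against 21.3, 12.1 and 15.9 in pan-BC. ON-BC (1.03, 0 and 7.18) and OFF-BC (3.35, 0 and 9.93) overlapped with each other and lay below all pan-BC libraries. Rods exceeded pan-BC 26.1-fold in Rdh8 (-4.65 ± 0.73 for pan-BC minus rods, adjusted p = 0.000203), and pan-BC were lower than blue cones by -3.17 ± 0.73 (adjusted p = 0.0134, 9.31-fold). The 2.80-fold excess of rods over blue cones did not pass (1.48 ± 0.73, adjusted p = 0.947).

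Dhrs3 (20148, chr4:144892827-144928209, plus strand), a retinal reductase that also acts outside the eye, was not called between pan-BC and blue cones, unlike the other 3 genes. It had 26666, 37289 and 34665 normalized read counts in rods but 4196, 5107 and 4255 in blue cones. Pan-BC had 2545, 2461 and 2374, ON-BC 2881, 2427 and 4110 and OFF-BC 3098, 2606 and 2889. The bipolar libraries thus ran from 2374 to 4110, just below the lowest blue cone library, and ON-BC and OFF-BC overlapped. The rod value exceeded that of pan-BC 13.4-fold (-3.73 ± 0.17, adjusted p = 1.36e-10) and that of blue cones 7.27-fold (2.85 ± 0.17, adjusted p = 7.60e-08). Every blue cone library was higher than every pan-BC library, 1.84-fold between means, but this did not pass the test (-0.87 ± 0.17, adjusted p = 1.0). Tested against a log2 difference of 0 instead, this excess of blue cones over pan-BC was called (adjusted p = 0.00015). The gene model of Vps13d on the other strand spans Dhrs3, with no overlap of their curated exons.

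**Figure D1:**
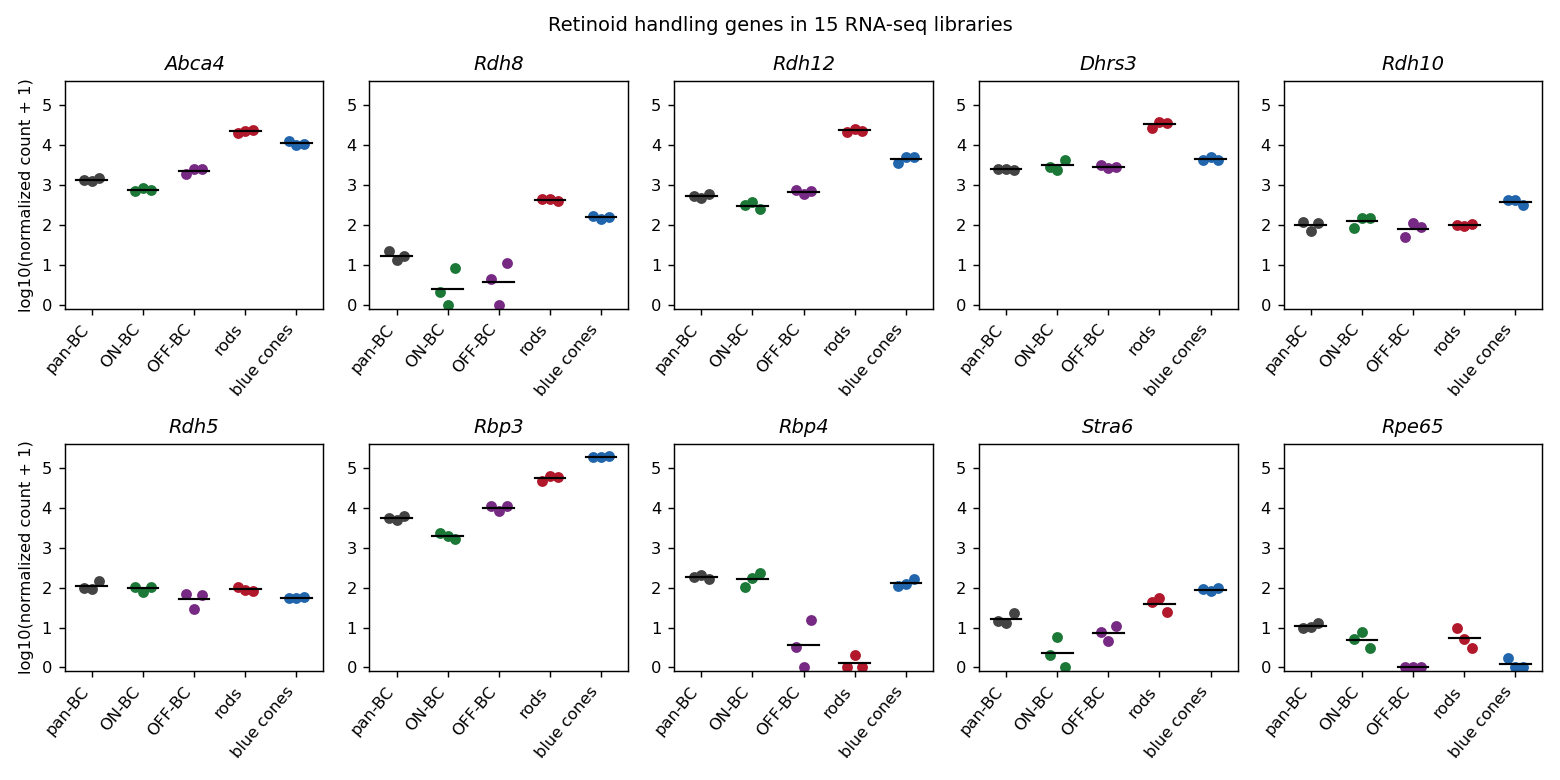
Normalized read counts of the 10 members, shown as log10(normalized read count + 1), in the 3 libraries of each of 5 populations (points), with the mean of the log values as a bar. Abca4 and Rbp3 had no overlap between neighbouring populations, and Rbp4 lay at or near 0 in rods and OFF-BC.

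The 2 dehydrogenases that oxidize retinoids were not among the photoreceptor-high genes of rods. Rdh5 (19682, chr10:128913588-128919297, minus strand) had 98.9, 92.8 and 147 normalized read counts in pan-BC, 104, 77.4 and 105 in ON-BC and 99.9, 85.0 and 83.2 in rods. Blue cones had 52.6, 53.1 and 58.5, and OFF-BC had 68.2, 27.6 and 64.0. The population means spanned 53.3 to 113, with overlap between pan-BC and ON-BC, ON-BC and rods, and blue cones and OFF-BC. No comparison of Rdh5 passed the test; the 2.06-fold excess of pan-BC over blue cones gave a log2 difference of 1.00 ± 0.31 (adjusted p = 0.943). Tested against a log2 difference of 0 instead, this excess of pan-BC over blue cones was called (adjusted p = 0.00731), as was that of ON-BC over OFF-BC (adjusted p = 0.0345).

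Rdh10 (98711, chr1:16105882-16132550, plus strand) was highest in blue cones, with 424, 419 and 309 normalized read counts. The other populations formed a chain of overlapping values, with 84.6, 146 and 151 in ON-BC, 119, 70.6 and 108 in pan-BC, 97.0, 90.1 and 102 in rods and 49.2, 113 and 88.3 in OFF-BC. Blue cones exceeded rods 3.99-fold (-1.97 ± 0.30 for rods minus blue cones, adjusted p = 0.0184) and pan-BC 3.88-fold (-1.96 ± 0.30 for pan-BC minus blue cones, adjusted p = 0.00901). Both calls depended on single libraries: that against pan-BC was lost without pan-BC library 2 (adjusted p = 0.0548), and that against rods was lost without blue cone library 1 (0.0567), blue cone library 2 (0.0660) or rod library 2 (0.0557). Microglia markers were also highest in the blue cone libraries, where the summed level of 6 of them was 378 to 792, against 62.1 to 99.4 in rods and 20.2 to 24.5 in pan-BC. All 6 were called higher in blue cones than in pan-BC, and C1qb and Tmem119 were called higher than in rods. The summed level of 9 Müller glia markers was 2141 to 3523 in blue cones, 1455 to 2309 in rods and 2224 to 2927 in pan-BC. Among them, Apoe was called higher in blue cones than in rods (adjusted p = 0.000875) and pan-BC (0.0387). Glul and Sox9 were called lower in blue cones than in pan-BC. Tyrp1, a pigment epithelium marker, was called higher in blue cones than in rods (0.0118) and pan-BC (0.00548). The part of these markers in Rdh10, Stra6 and the other members that were high in blue cones was not tested.

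Rbp3 and Rbp4 encode extracellular carriers. Rbp3 (19661, chr14:33954003-33964219, plus strand) reached the highest level of all members, with 181503, 182357 and 194514 normalized read counts in blue cones and 47427, 62611 and 60077 in rods. It had 11295, 8316 and 10863 in OFF-BC, 5593, 4896 and 6038 in pan-BC and 2267, 1999.8 and 1598.5 in ON-BC, with no overlap between neighbours. Pan-BC were lower than blue cones by -5.08 ± 0.16 on the log2 scale (adjusted p = 3.48e-12, 33.8-fold) and lower than rods by -3.36 ± 0.16 (adjusted p = 8.11e-10, 10.3-fold). Rods were lower than blue cones by -1.72 ± 0.16 (adjusted p = 0.00196, 3.28-fold).

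Rbp4 (19662, chr19:38116620-38125321, minus strand), the plasma carrier of retinol, was high in pan-BC, ON-BC and blue cones and at or near 0 in rods. Its normalized read counts were 184, 206 and 168 in pan-BC, 104, 176 and 236 in ON-BC and 106, 125 and 161 in blue cones. OFF-BC had 2.23, 0 and 14.4, and rods had 0, 1.02 and 0. Neighbours overlapped from pan-BC through ON-BC to blue cones and again between OFF-BC and rods, and a wide gap separated these 2 sets. The 3 rod libraries held 1 Rbp4 read in all against 514 in pan-BC, a ratio of 548 between pooled levels with a 95% interval from 98.0 to 21699 that covers counting error only. The interval for blue cones over rods ran from 68.7 to 15206 around 384. In the fit, pan-BC exceeded rods by 7.20 ± 0.67 (adjusted p = 2.39e-07) and rods were lower than blue cones by -6.68 ± 0.67 (adjusted p = 2.37e-06), while pan-BC and blue cones did not pass the test (0.52 ± 0.67, adjusted p = 1.0). Every pan-BC library was nevertheless above every blue cone library, 1.42-fold between means.

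Stra6 (20897, chr9:58129088-58153997, plus strand), the receptor for RBP4, was low in all populations. It had 88.8, 80.4 and 95.5 normalized read counts in blue cones, 42.7, 54.3 and 23.8 in rods, 13.8, 12.1 and 22.0 in pan-BC, 6.71, 3.60 and 9.93 in OFF-BC and 1.03, 4.90 and 0 in ON-BC, and only the last pair overlapped. Blue cones exceeded pan-BC 5.52-fold (-2.43 ± 0.55, adjusted p = 0.0276), a call that was lost without pan-BC library 1 (0.0697) or 2 (0.0860) or blue cone library 1 (0.0551) or 3 (0.0643). The difference between pan-BC and rods did not pass the test (-1.25 ± 0.55, adjusted p = 0.605). Tested against a log2 difference of 0 instead, it was called (adjusted p = 0.0469).

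Rpe65 (19892, chr3:159599181-159625307, plus strand), which forms cis retinol in the pigment epithelium, was at the limit of detection. It had 8.51, 9.08 and 12.2 normalized read counts in pan-BC, 8.73, 4.10 and 2.16 in rods and 4.13, 6.86 and 2.05 in ON-BC. Blue cones had 0.752, 0 and 0, and every OFF-BC library had 0, where a count of 0 allows up to 3.60. No library held more than 10 reads, and Rpe65 was the member that the filter on low counts left out. In a fit without that filter, pan-BC exceeded blue cones (3.17 ± 0.47, adjusted p = 0.000898), whereas pan-BC and rods (1.005 ± 0.47, adjusted p = 0.997) and ON-BC and OFF-BC (2.31 ± 0.47, adjusted p = 0.116) did not pass. The summed level of 12 pigment epithelium markers was 148 to 274 in pan-BC, 47.6 to 131 in rods, 96.5 to 138 in ON-BC, 107 to 123 in blue cones and 50.5 to 62.9 in OFF-BC. Tyr was at 0 in all pan-BC and OFF-BC libraries, Mlana, Oca2 and Lrat were at 0 in all rod libraries, and Mlana, Tyr, Slc45a2 and Oca2 were at 0 in all blue cone libraries. Of 7 pigment epithelium markers tested, 1 (Oca2) was called higher in pan-BC than in rods, where 27.8% of all tested genes were. Oca2, a melanosome protein, had 10.6, 12.1 and 8.565 normalized read counts in pan-BC, and pan-BC exceeded rods (adjusted p = 0.000269) and blue cones (adjusted p = 0.000357). Its mean was higher in ON-BC (22.0) than in pan-BC (10.4), unlike that of Rpe65 (4.35 and 9.94). Rgr, Ttr, Rrh, Dct, Pmel, Best1 and Lrat had higher means in pan-BC than in ON-BC, as Rpe65 did. Tyrp1, Mlana, Tyr and Slc45a2 had lower means in pan-BC than in ON-BC, as Oca2 did. Oca2 was also higher in ON-BC than in OFF-BC (3.32 ± 0.51, adjusted p = 0.00384). Ttr and Rgr were higher in pan-BC than in blue cones, and Tyrp1 was lower (adjusted p = 0.00548). Rrh, Dct and Pmel were not called in any comparison. The part of these markers in the Rpe65 values was not tested.

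Levels of different genes can be compared per kilobase of exon. In rods, Rdh12 (13759 normalized read counts per kb), Dhrs3 (12761) and Rbp3 (10703) were close to each other and Abca4 followed at 3034. In blue cones Rbp3 stood alone at 35131 per kb, ahead of Rdh12 at 2694, Dhrs3 at 1754 and Abca4 at 1542. Rbp3 (1039.8 per kb) and Dhrs3 (955) led in pan-BC, Dhrs3 (1219) led Rbp3 (369) in ON-BC, and Rbp3 (1917) led Dhrs3 (1112) in OFF-BC. These are ratios of means, and no test was made between genes.

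The calls over the members are set here beside those over all genes. Of the 9 members that passed the filter, 5 were lower in pan-BC than in rods (Abca4, Rdh8, Rdh12, Rbp3 and Dhrs3), where 15.8% of all tested genes were, and 1 was higher (Rbp4), where 27.8% were. Against blue cones, 6 were lower (Abca4, Rdh8, Rdh12, Rdh10, Rbp3 and Stra6), with 13.7% of all tested genes lower. None was higher, with 22.7% of all genes higher by limma. At an unadjusted p under 0.05 of the same test, and by edgeR and DESeq2, none of the 9 was higher either. Tested against a log2 difference of 0, Rdh5 was called higher (adjusted p = 0.00731) and Dhrs3 lower (0.00015). Rods exceeded blue cones in 2 members (Rdh12 and Dhrs3; 4.63% of all genes) and were lower in 3 (Rdh10, Rbp3 and Rbp4; 11.3% of all genes). The median log2 difference over the 9 members was -3.36 for pan-BC minus rods, -2.43 for pan-BC minus blue cones and 0.69 for rods minus blue cones, beside 0.21, 0.16 and -0.0047 over all genes. These counts describe members that passed a filter on reads, and the 3 comparisons share libraries. When each library was scaled to its total alone, the median of all genes moved by 0.35 in pan-BC minus rods and 0.28 in pan-BC minus blue cones, and 74.0% of the genes called between pan-BC and rods were higher in pan-BC, against 63.8% here.

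**Figure D2:**
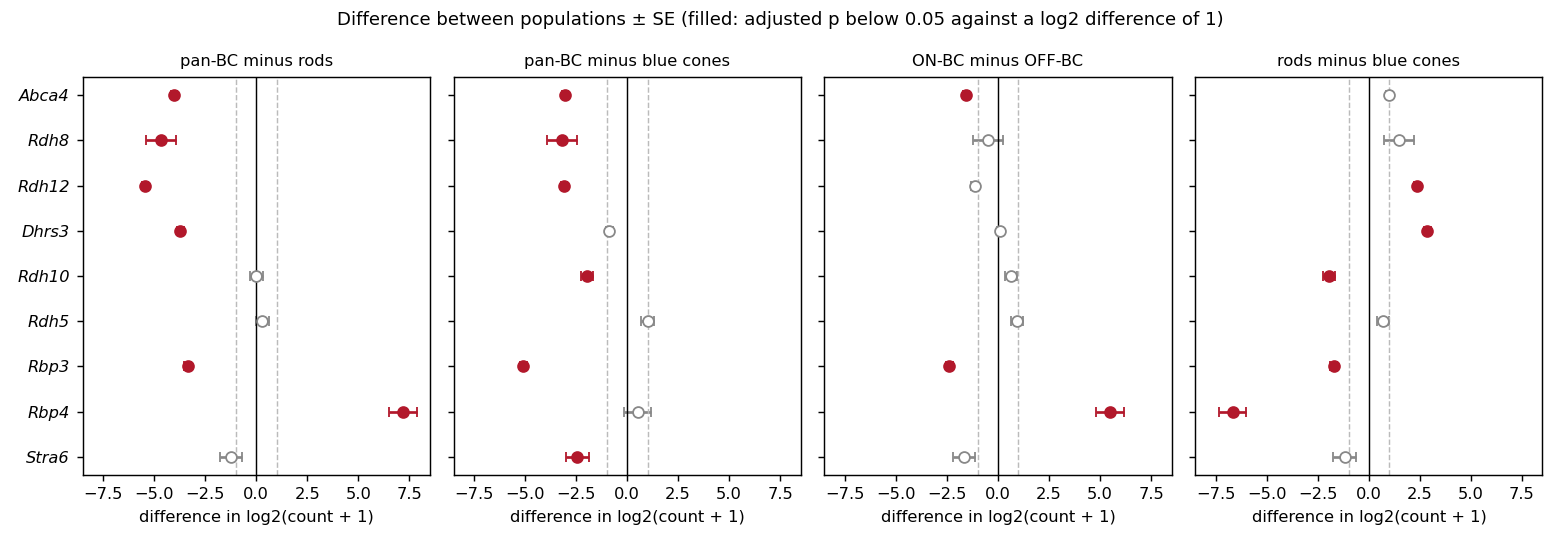
Log2 difference of log2(normalized read count + 1) with its standard error for the 9 members tested, in 4 comparisons of 3 against 3 libraries. Filled points passed limma's test against a log2 difference of 1 (dashed lines); Rbp4 is the member above the line for pan-BC minus rods, at 7.20, and Rdh12 is the lowest there, at -5.46.

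RNA of rod and cone markers was found in every bipolar population, and its level is given beside the members. In pan-BC, the 10 rod markers stood at 0.397% to 5.24% of their rod level (median 0.962%), and the rod-high members at 2.28% for Rdh12, 3.83% for Rdh8, 6.16% for Abca4, 7.48% for Dhrs3 and 9.72% for Rbp3. Against blue cones, the 8 cone markers in pan-BC stood at 0.259% to 19.1% of the cone level (median 3.93%), with Rbp3 at 2.96%, Rdh8 at 10.7%, Rdh12 at 11.6%, Abca4 at 12.1%, Stra6 at 18.1% and Rdh10 at 25.8%, above the range of the cone markers. No rod or cone marker was at 0 in any population as a whole. For Rbp4, rods held 1 read in 3 libraries and ON-BC had 132% of the blue cone level. The 8 cone markers had a median of 0.237% of their blue cone level in ON-BC. The part of the rod and cone markers in the bipolar cell values of the members, Rbp4 included, was not tested.

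ON-BC and OFF-BC came from the same mouse line and the same study, and 3 members differed between them. Only OFF-BC were sorted a second time, so population and rounds of sorting cannot be told apart in this comparison. Of 9 tested, Rbp4 was higher in ON-BC, where 2.95% of all genes were, and Abca4 and Rbp3 were lower, where 3.60% were; the median over the 9 was -0.51, against -0.015 over all genes. Rbp4 had at least 104 normalized read counts in each ON-BC library and at most 14.4 in each OFF-BC library, a difference of 5.48 ± 0.67 (adjusted p = 0.000106). The ratio of pooled levels was 30.3 with a 95% counting interval from 18.2 to 54.5, from 511 reads against 15. Of these 15 reads, OFF-BC library 3 held most, and without it the difference was 6.51 (adjusted p = 9.44e-07).

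Rbp3 was 5.20-fold and Abca4 3.01-fold higher in OFF-BC than in ON-BC, with no overlap between the libraries (-2.38 ± 0.16, adjusted p = 9.88e-06, and -1.58 ± 0.13, adjusted p = 0.00523, for ON-BC minus OFF-BC). Both calls held without OFF-BC library 3, at -2.32 (adjusted p = 8.80e-05) and -1.52 (adjusted p = 0.0284). All 8 cone markers moved the same way as these 2 members, each with a call, and were 3.47-fold to 31.6-fold higher in OFF-BC (median 12.2-fold). Their summed level was 5679 to 6462 in ON-BC and 31749 to 106866 in OFF-BC. Of the 10 rod markers, 7 were called higher in ON-BC. Cngb1 was 2.94-fold higher there without a call, and Sag and Pde6g were 2.09-fold and 1.73-fold higher in OFF-BC without a call. The part of the cone markers in the Rbp3 and Abca4 differences was not tested. A carry-over rule in the study's methods, read here as an excess of more than 16-fold of either photoreceptor population over the bipolar population with the higher value, takes Rbp3 but not Abca4 out of this comparison. In OFF-BC, Rbp3 stood at 5.46% of the blue cone level and 17.9% of the rod level, so that a reading that asks for both populations keeps it.

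The other 6 members tested did not pass between ON-BC and OFF-BC. Tested against a log2 difference of 0 in place of 1, Rdh12 (adjusted p = 2.95e-05), Stra6 (0.0319) and Rdh5 (0.0345) were called. Rdh12 had no overlap either, with 244 to 367 in ON-BC against 587.5 to 734 in OFF-BC, a 2.21-fold difference (-1.15 ± 0.16, adjusted p = 1.0). Rdh5 was higher in every ON-BC library than in any OFF-BC library (0.92 ± 0.31, adjusted p = 1.0). Rdh10 (0.63 ± 0.30), Dhrs3 (0.10 ± 0.17), Rdh8 (-0.51 ± 0.73) and Stra6 (-1.67 ± 0.55) overlapped between ON-BC and OFF-BC, each with an adjusted p of 1.0.

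**Figure D3:**
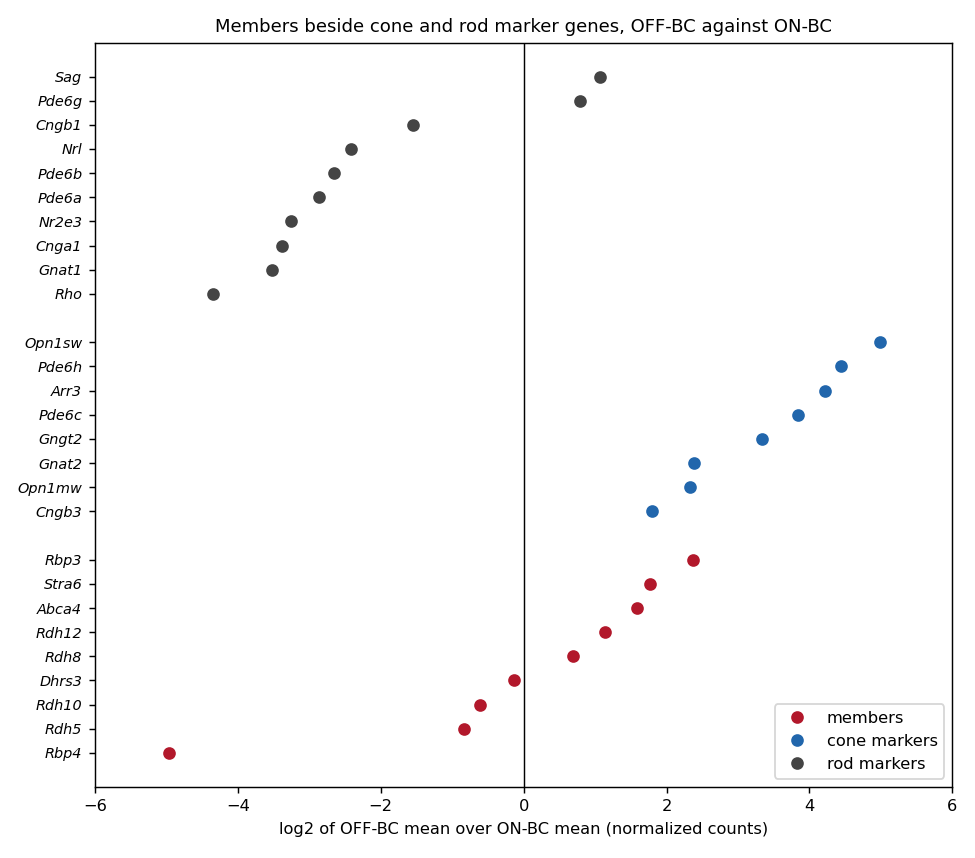
Ratio of mean normalized read counts in OFF-BC over ON-BC on a log2 axis, for 9 members (Rpe65 was at 0 in OFF-BC), 8 cone markers and 10 rod markers, each point being a ratio of means of 3 libraries. The cone markers lie between 3.47-fold and 31.6-fold, Rbp3 at 5.20-fold and Abca4 at 3.01-fold, while Rbp4 lies far on the other side.

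Of 48 other genes of retinoid metabolism listed beside the members, 46 were in the table and 30 were tested. Fabp5, a carrier of fatty acids and retinoic acid, was higher in OFF-BC than in ON-BC, with 459 to 479.5 in OFF-BC and 49.3 to 69.6 in ON-BC (-3.06 ± 0.22, adjusted p = 3.39e-06). Scarb1, a lipoprotein and carotenoid receptor, was lower in pan-BC (1978 to 2179) than in rods (6074 to 7219; -1.68 ± 0.10, adjusted p = 1.28e-05) and blue cones (5601 to 5941; -1.48 ± 0.10, adjusted p = 0.000568).

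Of 7 other visual cycle genes tested, pan-BC were lower than rods in 1, and higher than blue cones in 2 and lower in 1. The shares of all tested genes were 15.8%, 22.7% and 13.7%, in this order. Awat2, an acyltransferase that can make retinyl esters, had 2.02 to 15.9 normalized read counts in pan-BC, 85.4 to 119 in rods and 66.8 to 167 in blue cones (-3.69 ± 0.65 against rods, adjusted p = 0.00116). Rgr, a retinal-binding opsin of pigment epithelium and Müller glia, was higher in pan-BC (55.5 to 102) than in blue cones (12.1 to 20.7; 2.17 ± 0.41, adjusted p = 0.0178). Of 10 other oxidoreductases, pan-BC exceeded rods in Dhrs11 and were lower in Rdh1, and they were lower than blue cones in Rdh1 and Rdh9. The shares of all tested genes were 27.8%, 15.8% and 13.7%, in this order. Rdh1 and Rdh9 peaked in blue cones (225 to 253 and 267 to 294) and belong to a family of close copies, so that the split of reads between them is uncertain. Dhrs7 was higher in rods (1616 to 2115) than in blue cones (625 to 688; 1.5 ± 0.15, adjusted p = 0.0149).

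Of 7 genes of retinoic acid synthesis, breakdown and reception, pan-BC were lower than rods in 2 and lower than blue cones in 2. The shares of all tested genes were 15.8% and 13.7%. The receptors Rxra (64.9 to 74.7 in pan-BC, 495 to 559 in rods; -2.89 ± 0.27, adjusted p = 6.07e-06) and Rarb (69.1 to 93.0 and 297 to 329; -1.96 ± 0.22, adjusted p = 0.000802) were lower than in rods. Rxrg, a receptor known from cones, had 4179 to 4430.0 in blue cones and 13.6 to 22.7 in rods (-7.88 ± 0.75 for rods minus blue cones, adjusted p = 8.61e-07). Its OFF-BC values were 17.9, 9.61 and 150.1, the last in library 3, whose cone markers were highest. Over all 30 genes, 3 were higher and 5 lower in pan-BC than in rods, where 27.8% and 15.8% of all tested genes were. Than in blue cones, 4 were higher and 6 lower in pan-BC (22.7% and 13.7% of all genes). Between ON-BC and OFF-BC, 1 was higher and 2 lower in ON-BC (2.95% and 3.60% of all genes). Between rods and blue cones, 1 was higher and 3 lower in rods (4.63% and 11.3% of all genes).

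The genes most like each member over the 15 libraries, by Pearson's r of log2(normalized read count + 1), were Gucy2e for Abca4 (r = 0.997), Fam57b for Rdh12 (0.997), Enkur for Rdh8 (0.975) and Fbxl12 for Dhrs3 (0.987). They were Ablim1 for Rdh5 (0.814), Myo1e for Rdh10 (0.964), Acsl6 for Rbp3 (0.989), Ednrb for Rbp4 (0.978) and Npr1 for Stra6 (0.956). The next were Sgtb and Galnt4 for Abca4, Arg2 and Tctn3 for Rdh12, Uckl1os and Sirt4 for Rdh8, Pigc and 1110007C09Rik for Dhrs3, and Rgr and Prkca for Rdh5. For the others they were Ifngr2 and AU040320 for Rdh10, Lrp2 and Calcoco1 for Rbp3, Car8 and Ifitm10 for Rbp4, and Lrit3 and Cd274 for Stra6. The 15 libraries fall into 5 populations and share their depth differences, and these values are descriptions with no test.

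Accessibility around the members was read from 70 regions of 200 bp whose nearest RefSeq start belonged to a member: 23 for Abca4, 13 for Dhrs3, 11 for Rdh10, 7 for Rbp3, 5 each for Rdh12 and Rdh8, 3 for Stra6, 2 for Rbp4, 1 for Rpe65 and 0 for Rdh5. Of these, 10 lay at promoters, and 68 passed the filter on low counts. In pan-BC, 25 were less accessible than in rods, where 11.2% of all tested regions were, and 16 were more accessible, where 40.3% were. Against blue cones, 15 were less accessible (7.13% of all regions) and 18 more (28.8% of all regions). ON-BC exceeded OFF-BC in 3 regions (4.58% of all regions) and were lower in 8 (2.80% of all regions), and rods exceeded blue cones in 9 (1.46% of all regions) and were lower in 2 (8.56% of all regions). The median log2 difference was -1.01 for pan-BC minus rods over the members' regions and 1.16 over all regions. Leaving out 1 library gave 6 (without OFF-BC library 2) to 11 regions between ON-BC and OFF-BC, where DESeq2 called 5. It gave 4 (without rod library 1) to 13 between rods and blue cones. Regions of one gene are not independent of each other.

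Regions with lower values in pan-BC than in rods made up most of those at Rdh12, Rbp3 and Stra6. All 5 of Rdh12, 5 of 7 of Rbp3 and all 3 of Stra6 were lower, and none was higher. At Abca4, 7 were lower and 6 higher, at Dhrs3 3 were lower and 2 higher of 12 tested, and at Rdh8 2 of 5 were lower. At Rdh10, 7 of 10 were higher and none was lower, and the higher ones included those 166294 to 199204 bp away in introns of Stau2. The median log2 difference was -3.63 at Rdh12, -3.08 at Rbp3, -3.99 at Stra6 and 2.56 at Rdh10.

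**Figure D4:**
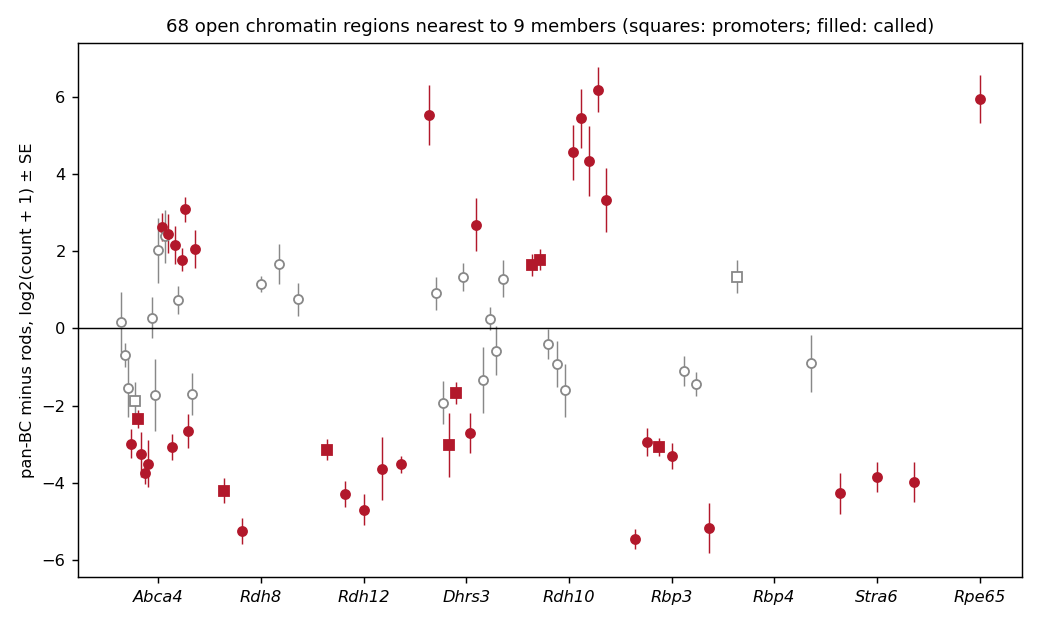
Log2 difference of pan-BC minus rods in the 68 tested regions nearest to a member, grouped by member and ordered by position within it, from 2 against 2 ATAC-seq libraries. Squares are promoter regions and filled symbols passed limma's test. All regions at Rdh12 and Stra6 lie below 0. The median at Rdh10 is 2.56, with regions in introns of Stau2 included.

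The Rbp3 region printed above lies 3704 bp upstream of the start and was the most different region of that gene between pan-BC and rods. It had 649.5 and 683 normalized read counts in rods, 350.4 and 300.0 in green cones, 275 and 286 in blue cones, 16 and 12.5 in pan-BC, 29.6 and 40.9 in OFF-BC and 8.96 and 13.2 in ON-BC (-5.46 ± 0.26 for pan-BC minus rods, adjusted p = 6.10e-10). All photoreceptor libraries exceeded all bipolar libraries. At the Rbp3 promoter (chr14:33953864-33954063), rods had 705 and 739, blue cones 526 and 481, pan-BC 72.8 and 98.6, OFF-BC 159 and 192 and ON-BC 59.7 and 30.8. ON-BC were lower than OFF-BC at this promoter (-2.0 ± 0.24, adjusted p = 0.00927), the same direction as in the Rbp3 transcript. The difference between rods and blue cones there did not pass the test (0.52 ± 0.24, adjusted p = 1.0), while the transcript was 3.28-fold higher in blue cones.

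At Abca4 the promoter region (chr3:122044328-122044527) had 428 and 461 normalized read counts in rods, 206 and 206 in blue cones, 68.01 and 109.5 in pan-BC, 104 and 73.2 in ON-BC and 113 and 98.3 in OFF-BC (-2.35 ± 0.23 for pan-BC minus rods, adjusted p = 5.19e-05). ON-BC and OFF-BC overlapped there. They separated at an intronic region 9279 bp after the start (chr3:122053640-122053839), with 8.96 and 17.6 in ON-BC against 99.7 and 70.1 in OFF-BC (-2.64 ± 0.29, adjusted p = 0.00108) and 419 and 403 in rods. Another intronic region of Abca4, 84678 bp after the start (chr3:122129039-122129238), went the other way. Chosen after its values were seen, it had 255 and 247 in ON-BC and 140.0 and 223.5 in pan-BC, against 53.9 and 29.2 in OFF-BC and 20.3 and 19.7 in rods. It was higher in ON-BC than in OFF-BC (2.63 ± 0.34, adjusted p = 0.00317) and higher in pan-BC than in rods (3.09 ± 0.34, adjusted p = 2.61e-05), although the Abca4 transcript was lower in both of these comparisons.

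Both named regions of Rdh8 and both of Rdh12 were photoreceptor-high. The Rdh8 promoter (chr9:20818339-20818538) had 568.5 and 575 normalized read counts in rods and 152 and 123 in blue cones against 41.6 and 21.7 in pan-BC (-4.20 ± 0.33, adjusted p = 2.25e-07), and it also differed between rods and blue cones (2.06 ± 0.33, adjusted p = 0.0279). An intronic Rdh8 region 1693 bp after the start (chr9:20820088-20820287) had 381 and 343 in rods, 13.6 and 5.13 in pan-BC and 124 and 114 in blue cones (-5.26 ± 0.34 for pan-BC minus rods, adjusted p = 1.36e-08). At the Rdh12 promoter (chr12:79208781-79208980), rods had 372 and 307, blue cones 133 and 169.8 and pan-BC 33.6 and 41.6 (-3.14 ± 0.28 for pan-BC minus rods, adjusted p = 3.40e-06). At all these regions every photoreceptor library lay above every bipolar library. The intronic Rdh12 region printed above had 317 and 294 in rods and 76.4 and 78.1 in blue cones, against 12.8 and 9.12 in pan-BC, 35.0 and 27.3 in OFF-BC and 2.99 and 8.79 in ON-BC. Pan-BC were lower than rods there (-4.70 ± 0.40, adjusted p = 3.79e-07), and values were lower in ON-BC than in OFF-BC (-2.35 ± 0.40, adjusted p = 0.0274). The largest rod to blue cone difference named here was at a region nearest to the Rdh12 start but inside an intron of Zfyve26 (chr12:79242972-79243171), chosen after its values were seen. It had 526 and 519 in rods, 45.6 and 43.3 in pan-BC and 66.1 and 54.9 in blue cones (3.10 ± 0.23 for rods minus blue cones, adjusted p = 3.06e-06).

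Of 2 named Dhrs3 regions, the promoter was most accessible in rods and the distal one had no reads there. The promoter region (chr4:144892304-144892503) had 241 and 218 normalized read counts in rods, 63.2 and 80.4 in pan-BC and 58.3 and 41.9 in blue cones, and rods exceeded both (adjusted p = 0.00632 against blue cones and 0.0338 against pan-BC). ON-BC had 73.2 and 83.5 there and OFF-BC 32.3 and 42.8, with no call (1.05 ± 0.29, adjusted p = 1.0). The region 24736 bp upstream, printed above with 5 E-box matches, had 43.2 and 47.3 in pan-BC, 37.3 and 29.3 in ON-BC and 2.69 and 1.95 in OFF-BC, and 0 in both rod libraries. With rods set at the 3 reads a count of 0 allows (up to 2.34 normalized read counts per library), the pan-BC mean was at least 19.4-fold higher. In the fit, which kept the counts of 0, pan-BC were higher than rods (5.53 ± 0.77, adjusted p = 4.78e-05). ON-BC exceeded OFF-BC (3.37 ± 0.77, adjusted p = 0.0468), whereas the Dhrs3 transcript overlapped between the populations.

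At Rdh10, 7 of 10 regions tested were more accessible in pan-BC than in rods, where 40.3% of all tested regions were. Against blue cones 5 were, beside 28.8% of all tested regions. Of these, the regions 166294, 187584, 192096 and 199204 bp after the start lay in introns of Stau2, and all were called in both comparisons. Nearer the start, the calls against rods were 584 and 78 bp upstream and 22677 bp downstream. The call against blue cones there was 78 bp upstream alone. The promoter region nearest to its start (chr1:16105705-16105904) had 158 and 212 normalized read counts in pan-BC, 57.6 and 47.4 in rods and 58.3 and 57.1 in blue cones, and pan-BC exceeded both (1.79 ± 0.27, adjusted p = 0.0104, and 1.65 ± 0.27, adjusted p = 0.0389). In a second promoter region, pan-BC exceeded rods but did not pass against blue cones (0.57, adjusted p = 1.0). The transcript values of pan-BC and rods overlapped, and those of blue cones were higher. A region 192096 bp after the start, in an intron of the neighbouring gene Stau2 (chr1:16297879-16298078), had 145 and 250.4 in ON-BC, 97.6 and 137 in pan-BC, 74.1 and 34.1 in OFF-BC and 1.56 and 0 in rods (6.19 ± 0.59 for pan-BC minus rods, adjusted p = 7.09e-07). Assignment by the nearest start does not show which gene such a region serves.

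Rbp4 had little accessible sequence, and its promoter did not follow its transcript in bipolar cells. The promoter region (chr19:38124650-38124849) had 20.8 and 29.7 normalized read counts in pan-BC, 24.3 and 17.5 in OFF-BC and 16.4 and 23.4 in ON-BC. Blue cones had 71.2 and 52.8, green cones 39.2 and 31.0, and rods 7.79 and 10.8. ON-BC and OFF-BC overlapped (-0.07 ± 0.42, adjusted p = 1.0). Rods were lower than blue cones (-2.61 ± 0.42, adjusted p = 0.0101), the direction of the Rbp4 transcript, and pan-BC minus rods did not pass the test (1.34 ± 0.42, adjusted p = 0.331).

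At Stra6, an intronic region (chr9:58144405-58144604) had 201 and 216 normalized read counts in rods, 72.5 and 85.3 in blue cones, 6.40 and 14.8 in pan-BC, 21.6 and 37.0 in OFF-BC and 2.99 and 0 in ON-BC. Pan-BC were lower than rods (-4.27 ± 0.52, adjusted p = 2.54e-05), and the transcript was 2.52-fold higher in rods than in pan-BC without passing the test. The only region nearest to Rpe65, 50677 bp upstream of its start and printed above, had 46.3 and 73.2 in ON-BC, 64.0 and 57.6 in pan-BC, 26.9 and 23.4 in OFF-BC and 0 in both rod and both blue cone libraries. The pan-BC mean was at least 26.0-fold above rods and at least 15.7-fold above blue cones, with the 3-read limit as the floor. In the fit, which kept the counts of 0, pan-BC were higher than both (5.95 ± 0.63, adjusted p = 2.40e-06 and 8.82e-06). No Rpe65 promoter region was in the table.

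**Figure D5:**
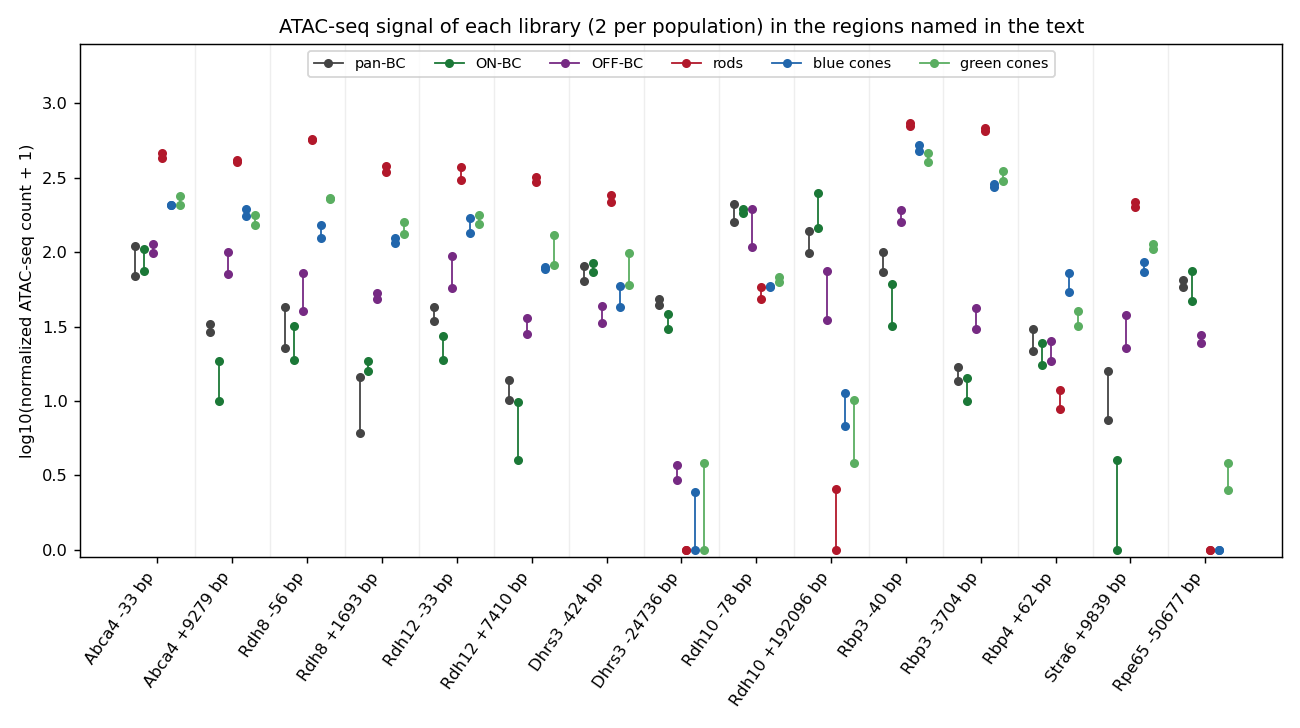
Normalized read counts, as log10(count + 1), of 15 regions chosen by rule for 9 members, in the 2 ATAC-seq libraries of each of 6 populations (points). The regions at Rbp3, Rdh12, Rdh8 and Stra6 are highest in rods, and the Rpe65 region is at 0 in rods and blue cones.

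The sequences of the members' regions were searched on both strands for the 4 motifs. TAATCC was in 24.3% of the 70 regions and in 21.8% of all 110715 regions, TAATTA in 4.3% and 5.2%, TAATTG in 2.9% and 6.9%, and CANNTG in 67.1% and 68.7%. Of the 25 regions lower in pan-BC than in rods, 7 held TAATCC, 3 held TAATTA or TAATTG and 17 held CANNTG, and of the 16 higher regions 3, 1 and 12 did. In the 250 bases before the starts, TAATCC was in 3 of the 15 windows of the 9 members with a RefSeq promoter entry, and in 6.3% of all 32851 windows. TAATTA was in 1 of the 15 and in 4.8% of all such windows, TAATTG in 1 and 7.2%, and CANNTG in 11 and 66.2%. Some of the letters overlap between motifs, and a match describes the sequence alone.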

How the data were processed

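The members and the gene lists were chosen with earlier results of these data known. For RNA-seq (SMARTer Ultra Low libraries, strand not stated), per the labels and the study's methods, the authors mapped reads to GRCm38 (STAR 2.7.0d) and made counts per RefSeq gene (HTSeq 1.9). For ATAC-seq they used Bowtie2 2.2.5, SAMtools 1.3, Picard 2.19.0 and bedtools 2.24.0, called peaks in each library with MACS2 2.1.1, counted reads in regions of 200 bp, and used HOMER 4.8 (versions from the submitters' processing notes). The signal values deposited by the authors are counts divided by 1 size factor per library. All 230384 RNA-seq and 1212862 ATAC-seq values above 0 were whole reads within 0.01 of a read. The ratio values are the fold enrichment over local background that MACS2 gave for each peak in the files deposited by the authors.

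Each table was filtered with edgeR 4.0.16 (14024 of 24062 genes, 108448 of 110715 regions), and log2(normalized count + 1) was tested with limma 3.58.1 (treat, log2 difference beyond 1, Benjamini-Hochberg adjusted p below 0.05, R 4.3.3), with 1 level per population. DESeq2 1.42.0 and edgeR on the recovered reads, other scalings, filters and pseudocounts and leaving out each library were alternatives. Regions were assigned to the nearest of 45756 RefSeq transcript starts, with promoters from 1000 bp upstream to 100 bp downstream. All members were named, with, for each member, the 3 genes most correlated with it, the promoter region of highest mean and the region of largest change between pan-BC and rods, and, of the listed genes called in any comparison, the 12 of highest mean, of which 1 is not reported here. On data simulated for pan-BC against rods, 84 of 100 genes changed 4-fold and 99 of 100 changed 16-fold were recovered over 14024 genes. Over 108448 regions, 27 and 98 of 100 were recovered. The changed genes and regions were drawn from those above a minimum mean count, so recovery at lower counts was not tested.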

Additional observations from a re-analysis of the deposited data

How the results depend on the processing

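Values are given in the order pan-BC against rods, pan-BC against blue cones, ON-BC against OFF-BC and rods against blue cones. The tests called 6112, 5092, 919 and 2231 genes and 6, 6, 3 and 5 members, and 55914, 38966, 8010 and 10871 regions and 41, 33, 11 and 11 regions of members. Testing a log2 difference of 0 in place of 1 gave 11156, 10704, 3783 and 8068 genes and 6 members in the third comparison. Regions within 10 kb of a start gave 22, 17 and 6 member regions in the first 3 comparisons. For ON-BC against OFF-BC, edgeR called 12927 regions and DESeq2 4791, with 5 member regions by DESeq2. For rods against blue cones, edgeR called 19112 regions and a pseudocount of 8 gave 5962. The cause was not tested.

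Leaving out 1 library at a time gave 5793 to 6190, 4706 to 5097, 779 to 968 and 2007 to 2361 genes, 6 to 6, 4 to 6, 3 to 3 and 4 to 5 members, 47336 to 56717, 28025 to 39597, 4175 to 7872 and 7091 to 11369 regions, and 31 to 42, 25 to 35, 6 to 11 and 4 to 13 member regions. Same-numbered ON-BC and OFF-BC libraries have the same age in the labels, which do not say that they share mice. The correlations of their deviations were -0.0763, 0.222 and -0.0649, and the block was kept as an alternative. With the replicate number as a block, 6088, 5055, 919 and 2214 genes, 6, 6, 3 and 5 members, 55719, 38801, 7906 and 10658 regions and 41, 33, 11 and 10 member regions were called. The carry-over rule, as read here, removed 63, 15 and 44 genes in the first 3 comparisons, Rbp3 among the last.

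Signs turned for differences near 0. Leaving out 1 library, Rdh8 in ON-BC minus OFF-BC ranged from -1.43 to 0.29, above 0 without ON-BC replicate 2 (0.17) and OFF-BC replicate 3. Rdh10 in pan-BC minus rods was -0.0246 with TMM scaling and -0.0231 with edgeR, and it ranged from -0.14 to 0.23 with 1 library left out, below 0 without pan-BC replicate 1, pan-BC replicate 3 (-0.07) and rod replicate 2 (-0.04). Dhrs3 in ON-BC minus OFF-BC ranged from -0.11 (without ON-BC replicate 3) to 0.27. Rdh10 in pan-BC minus blue cones lost its call with total scaling (adjusted p = 0.0664), as did Stra6 (0.0742), which also lost it with a pseudocount of 0.5 (0.0578). With 2 ATAC-seq libraries per population, 4-fold changes of regions were seldom recovered in simulated data, so a region without a call may still differ.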

Other observations

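Peaks called by the authors in each library offer a count that does not depend on the fits, though it moves with how many peaks were called in a library (40829 and 44540 in rods, 71698 and 94468 in pan-BC, 29410 to 69435 in the others), so that no difference between populations is read from it. Of the 70 regions nearest to a member, 42 and 46 overlapped a peak in the 2 rod libraries, 36 and 42 in pan-BC, 37 and 32 in OFF-BC, 33 and 34 in ON-BC, 38 and 28 in green cones and 28 and 35 in blue cones. A further pair of libraries from green cones sorted a second time, for which only peaks were analysed here, had peaks at 25 and 22 of these regions. The fold enrichment of these peaks over local background ran from 2.80 to 33.1 in rods and from 2.81 to 26.5 in pan-BC. The Rpe65 region held a peak in all 6 bipolar libraries and in no photoreceptor library. The Dhrs3 region 24736 bp upstream held one in both pan-BC and both ON-BC libraries and in no other. Such listings also move with how many peaks were called, and no difference between populations is read from them.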
